A study of Mus musculus with 12 samples.

Results

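RNA levels of 10 Kruppel-like factor genes, *Klf2*, *Klf3*, *Klf4*, *Klf5*, *Klf6*, *Klf7*, *Klf10*, *Klf11*, *Klf12* and *Klf13*, were described across 4 groups of mouse hearts. The genes were taken by symbol from a transcript table of 33641 gene symbols, and all transcript rows of a gene were summed. The list leaves out *Klf9* and *Klf15*, which are known targets of the glucocorticoid receptor. Of the 10, 9 reached 1 TPM (a length-adjusted share of a library, scaled so that all transcripts of a library sum to 1000000) in at least 3 of 12 libraries and were tested among 13158 genes, and *Klf5* did not.

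Kruppel-like factors are transcription factors with 3 zinc fingers at the carboxyl end, which bind CACCC boxes and related GC-rich elements, and with an amino-terminal part that differs between members and sets which cofactor is recruited. *Klf3* and *Klf12* are repressors that recruit the CtBP corepressors, *Klf10*, *Klf11* and *Klf13* recruit the SIN3A corepressor, and *Klf2*, *Klf4*, *Klf5*, *Klf6* and *Klf7* mostly act as activators through histone acetyltransferases. In the cardiovascular system *Klf2* and *Klf4* are known as factors of endothelial cells under laminar flow, *Klf6*, *Klf10* and *Klf11* as genes of the TGF-beta response, *Klf5* as a gene of stressed cardiomyocytes and smooth muscle, and *Klf13* as a partner of GATA4 and TBX5 in the developing heart.

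The 12 libraries came from myocardium of male C57BL/6 wild-type mice, 3 mice in each of 4 groups. Sham vehicle and sham prednisone mice had a sham operation, and MI vehicle and MI prednisone mice had surgery producing a myocardial infarction. Prednisone, a synthetic glucocorticoid, was injected into the peritoneum at 1 mg/kg in 100 µl of phosphate-buffered saline from a DMSO stock, at lights-on (zeitgeber time 0), once in each of 6 weeks from week 2 after surgery. Vehicle mice were labelled as receiving weekly vehicle over the same 6 weeks. Hearts were taken 24 hours after the last injection. The labels give an age of about 16 weeks for each mouse, and the protocol gives about 10 weeks at treatment. No genetic change was made in any group. The infarct's size and the position of the tissue piece relative to it are not given in the sources used here, so border, remote and scar tissue cannot be told apart.

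MI vehicle replicate 3 stood apart from the other libraries: 14307 genes reached 1 TPM in it, against 11690 to 12772 in the other 11, and its median gene was 0.74 above the sham vehicle mean on the log2 scale. Counts of called members are given with and without it. Cardiomyocyte markers summed to between 14711 and 23757 TPM in all 12 libraries, so the tissue matched its label, and the 3 MI vehicle libraries (14711 to 18483 TPM) lay below all other 9. The median gene was 0.39 higher in MI vehicle than in sham vehicle, and 0.41 lower in MI prednisone than in MI vehicle (log2), and member changes were read against these shifts. These medians were 0.19 and -0.22 without MI vehicle replicate 3. In whole tissue, fewer cells of a type and less RNA per cell cannot be told apart.

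Promoter windows, the 250 bases before the RefSeq start (GRCm38.p6), were held for 8 of the 10 members. Sequences are given for *Klf2*, the member with the highest RNA level, and for *Klf3* and *Klf13*, whose prednisone differences after infarction were the largest. Each run reads 5′ to 3′ on the gene's strand and stops before the first base of the gene in the GENCODE M21 annotation, which for *Klf2* and *Klf3* lies inside the window. Capitals mark matches, on either strand, to the CACCC box that this family binds (CACCC), the GC box (GGGCGG), the E-box (CACGTG) and the MEF2 box (CTA and TAG with 4 bases of any kind between them).
Klf2: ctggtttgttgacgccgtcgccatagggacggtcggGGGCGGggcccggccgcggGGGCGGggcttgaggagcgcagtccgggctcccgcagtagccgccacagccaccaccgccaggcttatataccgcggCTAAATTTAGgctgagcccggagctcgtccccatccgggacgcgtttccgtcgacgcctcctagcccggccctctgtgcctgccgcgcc
Klf3: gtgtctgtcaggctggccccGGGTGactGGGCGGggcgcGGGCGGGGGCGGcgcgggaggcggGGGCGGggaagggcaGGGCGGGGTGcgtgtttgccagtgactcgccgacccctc
Klf13: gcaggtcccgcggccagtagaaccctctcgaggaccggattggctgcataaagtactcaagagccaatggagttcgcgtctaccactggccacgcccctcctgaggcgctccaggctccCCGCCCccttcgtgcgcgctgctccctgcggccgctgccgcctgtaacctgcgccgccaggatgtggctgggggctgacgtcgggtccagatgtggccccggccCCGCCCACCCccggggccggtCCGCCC
The *Klf2* run is chr8:72318812-72319032 on the plus strand, the *Klf3* run is chr5:64803271-64803387 on the plus strand, and the *Klf13* run is chr7:63938916-63939165 on the minus strand.

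Over its whole window *Klf3* held 5 CACCC boxes and 6 GC boxes, 1 pair of which overlapped, and 78.4% of its bases were G or C. *Klf2* held 1 CACCC box, 2 GC boxes and 1 MEF2 box, whose first base lies 118 bases before the start. *Klf13* held 1 CACCC box and 3 GC boxes, again with 1 overlapping pair. Of the 8 member windows, 5 held a CACCC box and 7 a GC box, against 52.01% and 32.74% of 32851 windows in the table. The windows of *Klf7* and *Klf12*, both on the minus strand, lie wholly inside the gene in GENCODE M21. That of *Klf7* ends at 64121639 and the gene at 64122282. For *Klf12* these positions are 100150046 and 100284679, so its window is far from the annotated start of the gene. All member windows but that of *Klf12* (48% G or C) were above the median of all windows, 52.4% G or C. The part of base composition in these counts was not tested. An E-box was present in 3 member windows, those of *Klf4*, *Klf6* and *Klf11* (6.021% of all windows), and the MEF2 box in that of *Klf2* alone (3.202%). The palindromic glucocorticoid response element (AGAACA and TGTTCT with 3 bases of any kind between them) was in 0 of 8 member windows and in 3 of all windows, and the D-box TTANGTAA bound by the clock output factors was in 0 of 8 (2.061% of all windows). A match is a run of letters and not a measured binding site.

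Between hearts given vehicle, infarction was accompanied by higher RNA of *Klf3*, *Klf4* and *Klf6*. These 3 of 9 tested members were called higher by limma (adjusted p under 0.05 over all 13158 genes) and 0 lower, while 15.1% of all genes were called higher. The MI and sham values of 8 members, all but *Klf12*, did not overlap, against 40.8% of all genes that did not overlap and were higher in MI. Values were also rescaled: each library was divided by its median ratio to the others, which removes the shift shared by all genes. On rescaled values *Klf6* and *Klf10* did not overlap and were higher (15% of all genes), and *Klf12* did not overlap and was lower (18.7% of all genes). Median changes were 0.56 over the 9 members and 0.39 over all genes (log2). The 3 calls were lost with this median-ratio rescaling, after which 6.52% of all genes were called in either direction. Without MI vehicle replicate 3 the same 3 members were called, against 6.95% of all genes higher, and the member median was 0.36. The 3 calls were also lost when only these 6 libraries were fitted, where 0.0152% of all genes were called higher, and without sham vehicle replicate 1 or 3. The call of *Klf3* was also lost without sham vehicle replicate 2, any one of the sham prednisone libraries or MI prednisone replicate 1. Without MI vehicle replicate 1, 7 members were called, against 41.2% of all genes higher, and without MI prednisone replicate 3, 5 were, against 13.6%.

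Prednisone after infarction was accompanied by lower RNA of 8 of the 9 tested members, *Klf3*, *Klf4*, *Klf6*, *Klf7*, *Klf10*, *Klf11*, *Klf12* and *Klf13*, and *Klf2* was the exception. In this comparison 34.9% of all genes were called lower by limma. Median changes were -0.77 over the members and -0.41 over all genes. The values of the same 8 members did not overlap between MI prednisone and MI vehicle, against 42.6% of all genes that did not overlap and were lower. After median-ratio rescaling 5 members were called lower (*Klf3*, *Klf6*, *Klf7*, *Klf11* and *Klf13*), against 13.8% of all genes, and these with *Klf10* did not overlap (18.4% of all genes). When only the 6 infarcted hearts were fitted, *Klf3* and *Klf7* were called, against 5.91% of all genes lower. Without MI vehicle replicate 3, 7 were called lower, against 28% of all genes, and *Klf10* was lost, as it was without MI prednisone replicate 3.

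Comparing the infarcted with the sham hearts of prednisone-treated mice, *Klf3*, *Klf7* and *Klf12* were lower after infarction. These 3 of 9 compare with 14.1% of all genes called lower, and the median changes were -0.40 over the members and -0.058 over all genes. Of the 9, 5 (*Klf3*, *Klf7*, *Klf11*, *Klf12* and *Klf13*) did not overlap and were lower, against 32.2% of all genes. With rescaling *Klf11* was called too, which made 4 members against 14.6% of all genes. Here the median shift of all genes was small, and rescaling moved each member's log2 change by less than 0.1. This comparison holds no MI vehicle library, but those libraries enter the shared estimate of spread, and without MI vehicle replicate 3 the members called were 5, with *Klf11* and *Klf13* added, against 22.9% of all genes called lower. The same 5 were called when only the 6 prednisone-treated hearts were fitted (19.8% of all genes lower).

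In sham hearts prednisone left 0 of 9 members called by limma, where 0.114% of all genes were called, and 0 members had an unadjusted p under 0.05, against 469 genes. As deposited, *Klf3* and *Klf12* did not overlap and were higher (15.6% of all genes), and *Klf13* did not overlap and was lower (2.58%). After rescaling these were *Klf12* higher (8.68%), and *Klf10* and *Klf13* lower (7.38%). The difference of the prednisone effect between infarcted and sham hearts, tested as an interaction, was called lower for 6 members (*Klf3*, *Klf4*, *Klf6*, *Klf7*, *Klf11* and *Klf12*), while 20.7% of all genes were called lower. With any 1 library left out *Klf3*, *Klf4* and *Klf7* were called. *Klf6*, *Klf11* and *Klf12* each lost the call without at least 1 library of the sham groups. The members called were 4 without sham vehicle replicate 1 or 3, sham prednisone replicate 1 or MI prednisone replicate 1. The shares of all genes called in those fits are not given here. With rescaling the interaction was called for *Klf3* and *Klf7*, against 4.41% of all genes. The MI prednisone and MI vehicle libraries serve in more than one of these comparisons, so their counts are not independent of each other.

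**Figure D1:**
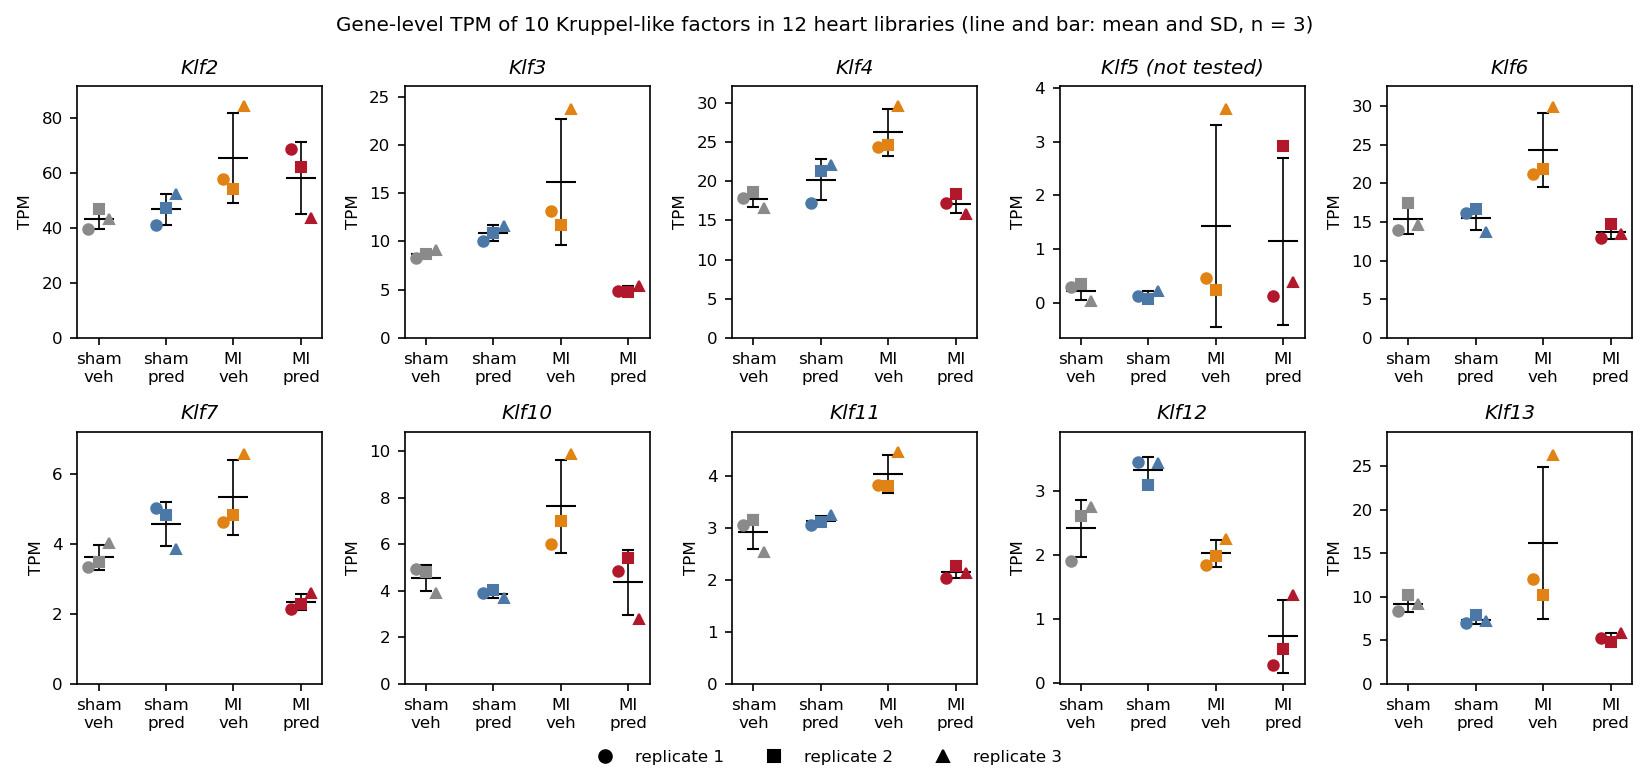
TPM of the 10 genes (vertical axes, linear, 1 panel a gene) in each of the 12 libraries, by group on the horizontal axis, with the group mean as a line and the SD as a bar (n = 3 mice). *Klf3*, *Klf7*, *Klf11*, *Klf12* and *Klf13* in the 3 MI prednisone libraries lie below all other 9 libraries, whereas *Klf2* does not. Of all genes, 42.6% were lower without overlap in MI prednisone than in MI vehicle, and 32.2% than in sham prednisone. The share below all other 9 libraries was not computed. MI vehicle replicate 3 (triangle) is the highest library of 9 of the 10 genes.

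Of the repressors that bind CtBP, *Klf3* (chromosome 5, 64803388 to 64832901, plus strand, GENCODE M21, GRCm38) is known as a broad repressor of CACCC-containing promoters. It stood at 8.30, 8.71 and 9.15 TPM in sham vehicle, then 10.03, 10.9 and 11.6 in sham prednisone, 13.1, 11.7 and 23.7 in MI vehicle, and 4.86, 4.79 and 5.42 in MI prednisone. The 4 groups did not overlap, with MI vehicle highest, then sham prednisone, sham vehicle and MI prednisone. Prednisone after infarction lowered the group mean from 16.2 ± 6.55 to 5.02 ± 0.341 TPM (SD, n = 3 each), a shift of -1.45 on the log2 scale of TPM + 1 (SE 0.21 and adjusted p = 0.0011 by limma). Rescaled, the change was -1.02 (limma adjusted p = 0.00092), and without MI vehicle replicate 3 it was -1.15 (limma adjusted p = 0.00034). In sham hearts *Klf3* differed the other way, by 0.28 on the log2 scale (SE 0.21 and adjusted p = 1.0 by limma), and was not called. The interaction was -1.73 (SE 0.29, limma adjusted p = 0.0068) and was called with rescaling as well (-1.23, limma adjusted p = 0.0086). Infarction under vehicle changed it by 0.76 on the log2 scale (SE 0.21 and adjusted p = 0.036 by limma), or 0.33 when rescaled and 0.46 without MI vehicle replicate 3, and infarction under prednisone changed it by -0.98 (limma adjusted p = 0.0092).

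*Klf12* (chromosome 14, 99870632 to 100284679, minus strand), named for its repression of the AP-2alpha gene, was a low gene in these hearts. Its values were 1.91, 2.61 and 2.75 TPM in sham vehicle, then 3.45, 3.09 and 3.45 in sham prednisone, 1.85, 1.98 and 2.26 in MI vehicle, and 0.285, 0.544 and 1.38 in MI prednisone. It was the only member whose MI vehicle mean was below its sham vehicle mean, and the sham and MI vehicle groups overlapped (log2 change -0.17, SE 0.21, limma adjusted p = 0.53). Every MI prednisone library was below all other 9, with replicate 3 of that group above the sum of the other two. Against sham prednisone *Klf12* fell by 1.37 on the log2 scale (SE 0.21, limma adjusted p = 0.0025), the largest fall of any member in that comparison, and the call was kept with rescaling (-1.34) and without MI vehicle replicate 3. Against MI vehicle the change was -0.85 (SE 0.21, limma adjusted p = 0.011), and with rescaling it was -0.58 (limma adjusted p = 0.069). Because 1 is added before the logarithm, these changes understate the change of a gene near 1 TPM.

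The SIN3A-binding members were *Klf13*, *Klf10* and *Klf11*. *Klf13* (chromosome 7, 63886351 to 63938915, minus strand), known for its role in cardiac development, stood at 8.35, 10.2 and 9.11 TPM in sham vehicle, then 6.98, 7.88 and 7.25 in sham prednisone, 12.1, 10.2 and 26.2 in MI vehicle, and 5.23, 4.86 and 5.83 in MI prednisone. Both prednisone groups lay below the vehicle group of the same surgery without overlap, as did 2.58% of all genes in sham hearts and 42.6% after infarction. In sham hearts that difference was not called (log2 change -0.28, SE 0.26, limma adjusted p = 1.0), whereas after infarction *Klf13* fell by 1.33 on the log2 scale (SE 0.26, limma adjusted p = 0.0039). Without MI vehicle replicate 3, the library at 26.2 TPM, the change was -0.94 and was called (limma adjusted p = 0.0011). *Klf13* was called lower with rescaling too (-0.91, limma adjusted p = 0.0041). The interaction for *Klf13* was -1.05 (SE 0.37, limma adjusted p = 0.064) and passed the threshold without any one of the MI vehicle libraries (without replicate 3, -0.66, limma adjusted p = 0.017).

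*Klf11* (chromosome 12, 24651274 to 24662789, plus strand), an early gene of the TGF-beta response, had narrow groups. Its 3 values ran from 2.54 to 3.16 TPM in sham vehicle, from 3.05 to 3.25 in sham prednisone, from 3.81 to 4.45 in MI vehicle and from 2.03 to 2.26 in MI prednisone. Prednisone after infarction lowered it by 0.68 on the log2 scale (SE 0.13, limma adjusted p = 0.0032), and by 0.33 after rescaling (limma adjusted p = 0.047). *Klf10* (chromosome 15, 38291463 to 38300706, minus strand), the TGF-beta inducible early gene and a known output of the circadian clock, ran from 3.90 to 4.93 TPM in sham vehicle, 3.69 to 4.02 in sham prednisone, 6.02 to 9.85 in MI vehicle and 2.78 to 5.41 in MI prednisone. Its log2 change with prednisone after infarction was -0.70 (SE 0.21, limma adjusted p = 0.026), and it was not called with rescaling (-0.30, limma adjusted p = 0.17) or without MI vehicle replicate 3 (-0.52, limma adjusted p = 0.071).

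Among the activators, *Klf2* (chromosome 8, 72319033 to 72321656, plus strand) was the highest member in every library. Its values were 39.8, 46.8 and 43.4 TPM in sham vehicle, then 41.1, 47.2 and 52.3 in sham prednisone, 57.8, 54.1 and 84.3 in MI vehicle, and 68.9, 62.1 and 43.7 in MI prednisone. Replicate 3 of MI prednisone was the low one of its group and lay in the range of the sham hearts, so MI prednisone overlapped every other group. *Klf2* passed in none of the 4 group comparisons, and the log2 change with prednisone after infarction was -0.16 (SE 0.20, limma adjusted p = 0.52). That sign turned with the scaling, to 0.29 after median-ratio rescaling. Infarction under vehicle gave 0.56 (SE 0.20, limma adjusted p = 0.066) with no overlap between the groups. It was 0.11 after rescaling, where the groups overlapped, and 0.36 without MI vehicle replicate 3, called in neither.

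*Klf4* (chromosome 4, 55527143 to 55532466, minus strand), which shares endothelial flow targets with *Klf2*, stood at 17.9, 18.6 and 16.6 TPM in sham vehicle, then 17.2, 21.3 and 22.04 in sham prednisone, 24.4, 24.6 and 29.6 in MI vehicle, and 17.2, 18.3 and 15.9 in MI prednisone. MI vehicle was above all other 9 libraries, and MI prednisone overlapped sham vehicle. *Klf4* rose with infarction under vehicle by 0.54 on the log2 scale (SE 0.12 and adjusted p = 0.022 by limma) and fell with prednisone after infarction by 0.58 (SE 0.12, limma adjusted p = 0.0054). Rescaled, these were 0.10 and -0.14 and neither was called. *Klf6* (chromosome 13, 5861482 to 5870394, plus strand), a gene of wounding and fibrosis in several organs, had the same order of group means. It stood at 13.98, 17.5 and 14.6 TPM in sham vehicle, then 16.2, 16.7 and 13.7 in sham prednisone, 21.2, 21.9 and 29.9 in MI vehicle, and 13.0, 14.8 and 13.4 in MI prednisone. Its log2 change was 0.62 with infarction under vehicle (SE 0.15, limma adjusted p = 0.024) and -0.77 with prednisone after infarction (SE 0.15, limma adjusted p = 0.0035), and the latter was called with rescaling (-0.33, limma adjusted p = 0.042). The sham vehicle, sham prednisone and MI prednisone values of *Klf6* overlapped.

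*Klf7* (chromosome 1, 64029447 to 64122282, minus strand), best known from neurons and adipocytes, stood at 3.34, 3.47 and 4.02 TPM in sham vehicle, then 5.02, 4.83 and 3.86 in sham prednisone, 4.62, 4.81 and 6.56 in MI vehicle, and 2.14, 2.28 and 2.58 in MI prednisone. The MI prednisone hearts were below the other 9 libraries. *Klf7* fell with prednisone after infarction by 0.91 on the log2 scale (SE 0.16, limma adjusted p = 0.0021), and by 0.54 after rescaling (limma adjusted p = 0.015). Between prednisone-treated hearts it was lower after infarction by 0.74 (SE 0.16, limma adjusted p = 0.0091). Its interaction was -1.18 (SE 0.22, limma adjusted p = 0.0089), and -0.75 when rescaled (limma adjusted p = 0.041).

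*Klf5* (chromosome 14, 99298691 to 99315036, plus strand) reached 1 TPM in 2 libraries only, at 3.60 TPM in MI vehicle replicate 3 and 2.92 TPM in MI prednisone replicate 2. The other 10 libraries held from 0.0321 to 0.467 TPM, and no group comparison was made. Markers of adipocytes (*Adipoq*, *Plin1* and *Lep*) had their highest sums in those same libraries, 292 TPM in MI vehicle replicate 3 and 143 TPM in MI prednisone replicate 2, against 3.24 to 120.0 TPM in the other 10. The part of adipocyte RNA in the *Klf5* values was not tested.

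**Figure D2:**
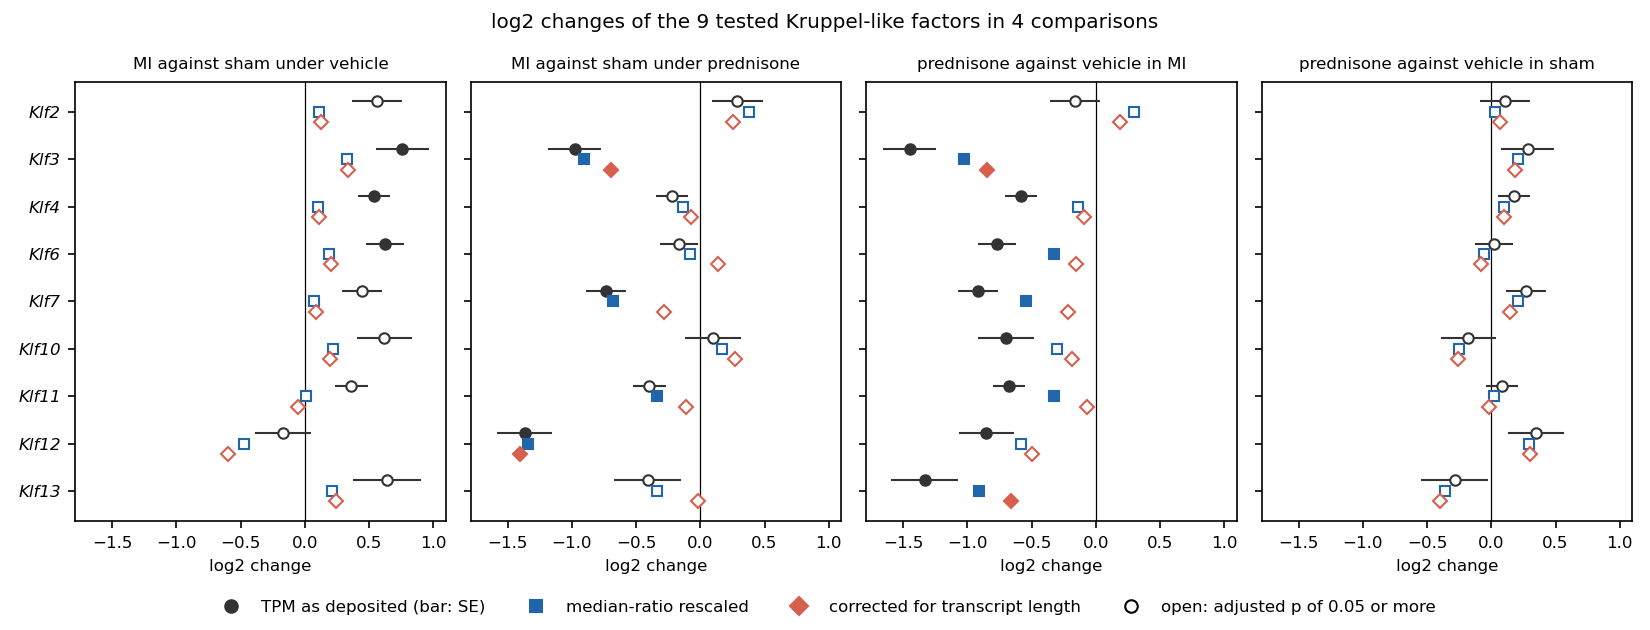
Log2 changes on log2(TPM + 1) of the 9 tested members (rows) in the 4 group comparisons (panels), from TPM as deposited with the SE as a bar (circles), after median-ratio rescaling (squares) and after a transcript-length correction (diamonds), filled where the limma adjusted p was under 0.05. In prednisone against vehicle in MI all circles but that of *Klf2* are filled, and the diamonds of *Klf3* and *Klf13* are the filled ones.

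Transcript length was a second property that moved with the MI prednisone libraries. Across genes, a library's deviation from the sham vehicle mean of each gene was correlated with length (Spearman's rho, described over genes and not over samples). The rho was -0.41 to -0.27 in the 3 MI prednisone libraries. It was -0.12 to 0.24 in the other 9, which include the sham vehicle libraries themselves. The median log2 change with prednisone after infarction went from -0.023 in the tenth of genes with the shortest transcripts (median 550 bases) to -0.69 in the tenth with the longest (6182 bases). Members are long genes: the median was 3994 bases over the 9 tested members and 2321 bases over all tested genes. *Klf2* (1847 bases) and *Klf12* (1856 bases) were the short members, and *Klf13* (5535 bases) and *Klf7* (7019 bases) the longest.

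A curve of deviation against length, here the deviation from each gene's mean over all libraries, was therefore subtracted from each library, and the fit was repeated. With that correction *Klf3* (-0.85, limma adjusted p = 0.0026) and *Klf13* (-0.66, limma adjusted p = 0.025) were called lower with prednisone after infarction, 2 of 9 members, against 7.66% of all genes. *Klf3* (-0.69, limma adjusted p = 0.0075) and *Klf12* (-1.40, limma adjusted p = 0.0063) were called lower in MI prednisone than in sham prednisone, against 7.97% of all genes. For *Klf7* the change with prednisone after infarction became -0.22 (limma adjusted p = 0.20), and for *Klf11* it became -0.070 (limma adjusted p = 0.70). The interaction was called for *Klf3* alone (-1.03, limma adjusted p = 0.019), against 1.14% of all genes. *Klf3* was thus called lower in MI prednisone hearts against MI vehicle, against sham prednisone and in the interaction as deposited, rescaled and length-corrected.

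**Figure D3:**
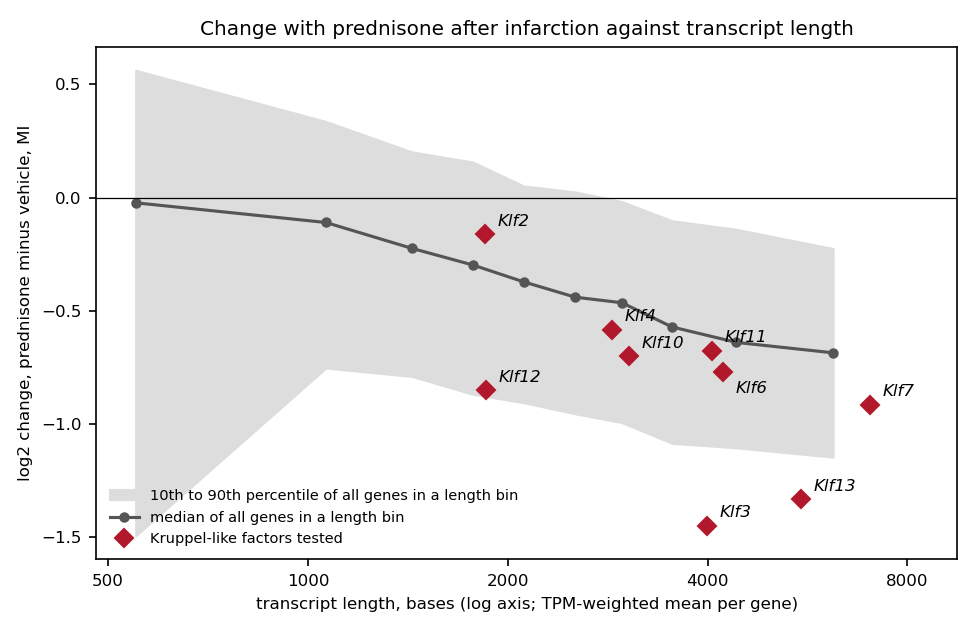
Log2 change of prednisone against vehicle in MI (vertical axis) against transcript length in bases (horizontal log axis), with the median and the 10th to 90th percentile of all tested genes in 10 length bins and the 9 tested members as diamonds. *Klf3* and *Klf13* lie below the 10th percentile of genes of like length, and *Klf2* lies above the median of its length.

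The transcript rows of *Klf3* were also compared between groups, on TPM as deposited, so the shift shared by all genes applies to them. Its most abundant row (ENSMUST00000165536.7, 5221 bases, 69.4% of the gene's TPM) changed by -1.05 with prednisone after infarction (SE 0.22, limma adjusted p = 0.0048, over all transcripts tested). A row of 1562 bases (ENSMUST00000166409.5) changed by -1.52 (SE 0.38, limma adjusted p = 0.012) and a row of 809 bases (ENSMUST00000198946.1) by -1.28 (SE 0.42, limma adjusted p = 0.036). Both short rows were near the floor in MI prednisone, at 0.131, 0 and 0 TPM and at 0, 3.8e-08 and 0.524 TPM. In sham vehicle the row of 1562 bases stood at 0.088, 0.741 and 0.533 TPM. These 3 of the gene's 9 rows are given as measured, and what length does to them was not tested. Against sham prednisone the long row was not called (-0.48, limma adjusted p = 0.14), and the row of 1562 bases was (-1.38, limma adjusted p = 0.024). For *Klf13*, the row of 6396 bases that held 85.4% of its TPM changed by -1.18 (SE 0.32, limma adjusted p = 0.016), and a row of 487 bases by -1.09 (SE 0.33, limma adjusted p = 0.029). That short row stood at 0, 0.239 and 0.909 TPM in MI prednisone. *Klf2*, *Klf5*, *Klf6*, *Klf10* and *Klf12* have 1 row each. The spans of *Klf3*, *Klf7*, *Klf12* and *Klf13* overlap other annotated genes, on the opposite strand in all but 1 case, and whether strand was used in quantification is not given in the sources used here.

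Ratios between members within a library do not depend on the scaling between libraries. *Klf2* made up 38.2% to 43.0% of the summed TPM of the 10 genes in the 9 libraries outside MI prednisone, and 58.1%, 52.5% and 46.7% in MI prednisone replicates 1, 2 and 3. *Klf3* took 7.50% to 10.7% in the other 9 libraries and 4.05% to 5.79% in MI prednisone. The ratio of *Klf2* to *Klf3* was 14.2, 13.0 and 8.06 in MI prednisone, against 3.56 to 5.38 elsewhere. None of these 3 quantities overlapped between MI prednisone and the rest, MI vehicle replicate 3 included. *Klf2* to *Klf12* ran from 31.6 to 242 in MI prednisone and from 11.9 to 37.4 elsewhere, which overlapped. The summed TPM of the 10 genes was 93.5 to 119 in MI prednisone and 102 to 220 in the others. The length difference between *Klf2* and *Klf3* applies to these ratios, and they are given as a description.

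**Figure D4:**
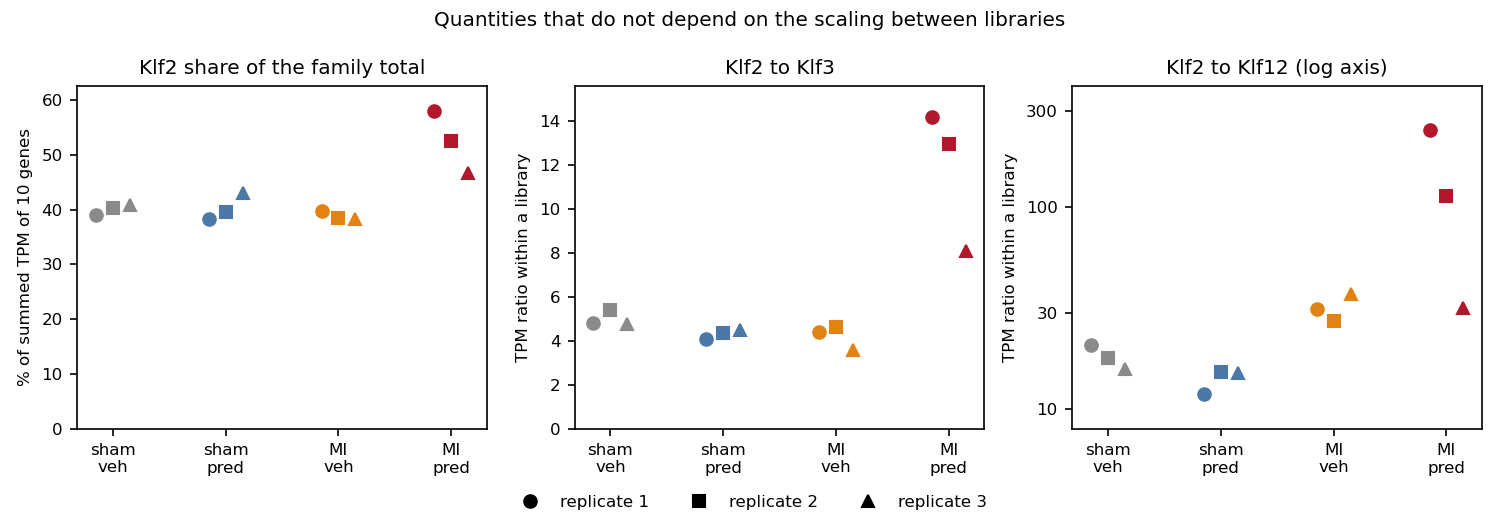
*Klf2* as a percentage of the summed TPM of the 10 genes, and the TPM ratios of *Klf2* to *Klf3* and of *Klf2* to *Klf12* (log axis), 1 point a library, by group. The *Klf2* share lies between 46.7% and 58.1% in the 3 MI prednisone libraries and at or below 43.0% in all others, and the ratio to *Klf12* in MI prednisone replicate 3 lies within the range of MI vehicle.

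On log2(TPM + 1) over the 12 libraries, which share their scaling, 34 of 36 pairs of members correlated above 0 (Pearson's r), with *Klf3* and *Klf7* the highest pair at 0.95. Of the 36 pairs, 30 were above 0 without MI vehicle replicate 3. After rescaling 28 pairs were above 0, and 6 of the 8 pairs that hold *Klf2* were below it. The members whose group means ranged most were *Klf3*, *Klf12*, *Klf13* and *Klf7*, by 1.45, 1.37, 1.33 and 0.91 on the log2 scale. Among 7839 other genes averaging 5 TPM or more, *Pskh1* (r = 0.98) and *Dcaf7* (0.98) were most like *Klf3*, *Tmem94* (0.99) and *Entpd4* (0.99) most like *Klf12*, *Jak2* (0.97) and *Vgll4* (0.97) most like *Klf13*, and *Tnks2* (0.97) and *Fcho2* (0.97) most like *Klf7*, each over 12 libraries. For the same genes r ran from 0.85 (*Pskh1*) to 0.95 (*Tmem94*) after rescaling. Without MI vehicle replicate 3 it ran from 0.90 (*Vgll4*) to 0.99 (*Tmem94*). These r were picked as the highest of many and were not tested.

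The lists of related genes that follow are read against the shares of all genes called. With prednisone after infarction these were 34.9% lower and 2.5% higher as deposited, 13.8% lower and 14.4% higher after rescaling, and 7.66% lower and 8.73% higher after length correction. With infarction under vehicle 15.1%, 3.26% and 3.04% were higher in the same order.

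In the rest of the KLF and SP family, 7 of 16 genes were tested. Prednisone after infarction came with lower RNA of 5 of them (*Klf9*, *Sp1*, *Sp2*, *Sp3* and *Sp4*), 4 after rescaling and 2 after length correction, and the list's median was -0.91 against -0.41 for all genes. *Sp3*, which binds the same GC boxes, went from 17.7 ± 9.09 to 5.24 ± 1.24 TPM (SD, n = 3 each), a shift of -1.49 on the log2 scale (SE 0.28 and adjusted p = 0.0029 by limma), or -1.12 without MI vehicle replicate 3. *Klf9* went from 37.4 ± 2.40 to 10.5 ± 4.93 TPM, a shift of -1.82 on the log2 scale (SE 0.24 and adjusted p = 0.00086 by limma). Infarction under vehicle came with 1 call, *Klf16* higher (limma adjusted p = 0.049), which was lost after rescaling, after length correction and without MI vehicle replicate 3. Prednisone in sham hearts came with 0.

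Of 12 genes for the cofactors and turnover of these proteins, 7 were lower with prednisone after infarction (34.9% of all genes were) and 0 higher, with a median of -0.63, and 4 were lower without MI vehicle replicate 3. After rescaling the calls were 2 lower and 2 higher, and after length correction 1 of each. *Sin3a*, the scaffold recruited by *Klf10*, *Klf11* and *Klf13*, went from 10.6 ± 4.37 to 4.06 ± 0.0328 TPM (SD, n = 3 each), a shift of -1.14 on the log2 scale (SE 0.21 and adjusted p = 0.0027 by limma), which was called as deposited, rescaled and length-corrected, and was -0.84 without MI vehicle replicate 3. *Ctbp2*, a corepressor bound by *Klf3* and *Klf12*, changed by -0.55 (SE 0.14, limma adjusted p = 0.012) and was not called with rescaling (-0.12, limma adjusted p = 0.51). *Ep300*, the acetyltransferase used by the activators, changed by -1.18 (SE 0.25, limma adjusted p = 0.0057) and was not called with length correction (-0.48).

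Upstream of *Klf2* and *Klf4* in endothelial cells lie the flow sensor *Piezo1*, the receptor *Heg1* with the CCM proteins, the kinases from MEKK2 and MEKK3 to ERK5, and the MEF2 factors that bind the *Klf2* promoter. Of these 12 genes 7 were lower with prednisone after infarction and 0 higher, 5 lower after rescaling, and 4 lower with *Piezo1* higher after length correction, where 34.9%, 13.8% and 7.66% of all genes were lower. *Mef2c* went from 19.2 ± 2.32 to 6.70 ± 1.52 TPM (SD, n = 3 each), a shift of -1.40 on the log2 scale (SE 0.16 and adjusted p = 0.00055 by limma), and *Heg1* from 32.5 ± 6.36 to 13.9 ± 0.476 TPM, a shift of -1.15 on the log2 scale (SE 0.14 and adjusted p = 0.00077 by limma). *Map3k3*, which encodes MEKK3, changed by -0.96 (SE 0.14, limma adjusted p = 0.0013). All 3 were called with rescaling and with length correction, while *Klf2* was not called. *Piezo1* was higher after infarction under vehicle (by 0.74 on the log2 scale, SE 0.22, limma adjusted p = 0.044) and under prednisone (0.73, SE 0.22, limma adjusted p = 0.040). The first of these became 0.33 after rescaling, 0.34 after length correction and 0.70 without MI vehicle replicate 3, called in none of them, and the second was called with both corrections.

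Downstream, 7 of 9 endothelial genes were tested. Infarction under vehicle came with 4 higher (*Thbd*, *Edn1*, *Vcam1* and *Angpt2*) and a median of 0.84, 3 were higher after rescaling, 1 after length correction and 2 without MI vehicle replicate 3. Prednisone after infarction came with 3 lower (*Thbd*, *Vcam1* and *Angpt2*) and a median of -0.49. After rescaling the calls were 2 lower and 2 higher, and after length correction 1 of each, so the split turned on the scaling. *Thbd*, thrombomodulin, a known target that *Klf2* raises, went from 15.04 ± 0.876 in sham vehicle to 31.6 ± 7.95 TPM in MI vehicle and 17.2 ± 2.83 TPM in MI prednisone (SD, n = 3 each). *Nos3*, endothelial nitric oxide synthase and likewise a target, changed by -0.018 with prednisone after infarction (SE 0.14, limma adjusted p = 0.93), and by 0.40 when rescaled (limma adjusted p = 0.023). *Vcam1*, an adhesion gene that *Klf2* holds down in flow experiments, changed by -1.55 (SE 0.28, limma adjusted p = 0.0025) and was called with rescaling and with length correction.

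The TGF-beta list, 11 genes around *Klf10* and *Klf11*, held 8 genes higher with infarction under vehicle and 11 of 11 lower with prednisone after infarction, with medians of 0.88 and -0.96. After rescaling these counts were 3 and 7, and after length correction 3 and 5, with 0 genes called in the opposite direction. They were 4 and 9 without MI vehicle replicate 3. *Tgfbr2*, the type II receptor, went from 13.1 ± 2.82 in sham vehicle to 28.7 ± 8.51 in MI vehicle and 8.18 ± 0.565 TPM in MI prednisone (SD, n = 3 each), the last step being -1.66 on the log2 scale (SE 0.19 and adjusted p = 0.00059 by limma). *Skil*, an early target that dampens SMAD signalling, changed by -1.25 (SE 0.22, limma adjusted p = 0.0023). *Klf10* and *Klf11* had changes of -0.70 and -0.68 in that comparison.

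Among 8 cardiac partners of *Klf5* and *Klf13*, 2 were lower with prednisone after infarction, *Ppara* and *Cd36*, a smaller share than the 34.9% of all genes. *Cd36* lost the call after rescaling and after length correction, and *Ppara* kept it in both. *Ppara*, the fatty acid receptor whose gene *Klf5* is known to activate in cardiomyocytes, went from 11.5 ± 1.65 to 3.49 ± 1.66 TPM (SD, n = 3 each), a shift of -1.53 on the log2 scale (SE 0.21 and adjusted p = 0.0010 by limma). *Gata4*, the factor that *Klf13* binds, changed by -0.16 (SE 0.13, limma adjusted p = 0.36).

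Immediate early genes, which many stimuli induce within minutes and among which *Klf2*, *Klf4*, *Klf6* and *Klf10* are often counted, were 7 of 17 higher with infarction under vehicle and 7 of 17 lower with prednisone after infarction, where 34.9% of all genes were lower. These counts were 3 and 4 without MI vehicle replicate 3, and 1 and 0 after length correction. After rescaling, 1 of 16 was higher in the first comparison, and 2 were lower and 1 higher in the second. *Egr1* was not called in any comparison, with group means from 7.38 ± 3.80 TPM in sham vehicle to 13.8 ± 5.58 TPM in MI vehicle (SD, n = 3 each). *Jun* changed by 0.62 with infarction (SE 0.14, limma adjusted p = 0.022) and by -0.63 with prednisone after it (SE 0.14, limma adjusted p = 0.0075), and neither was called after rescaling (0.18 and -0.18). The part of a shared early response in the member values was not tested.

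Clock genes were the list that moved in sham hearts, where no member was called: 2 of 14 were higher with prednisone (*Arntl* and *Nfil3*) and 5 lower (*Dbp*, *Tef*, *Nr1d1*, *Nr1d2* and *Per3*), and after rescaling 3 were higher and 7 lower. Of all genes, 0.0532% were higher and 0.0608% lower there, and 0.0534% and 0.0686% after rescaling. *Dbp*, a clock output gene, went from 81.5 ± 5.72 to 6.60 ± 1.14 TPM in sham hearts (SD, n = 3 each), a shift of -3.45 on the log2 scale (SE 0.13 and adjusted p = 3.2e-07 by limma). *Klf10*, whose promoter is known to be driven by the clock, had a log2 change of -0.18 there (SE 0.21, limma adjusted p = 1.0). By the labels every heart was taken 24 hours after an injection at lights-on, so a shift of phase and a change of level cannot be told apart.

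Markers of other cell types moved with the same comparisons. Summed endothelial markers (7 genes, *Pecam1*, *Cdh5* and *Kdr* among them) ran from 175 to 196 TPM in sham vehicle, 202 to 232 in sham prednisone, 230 to 316 in MI vehicle and 176 to 197 in MI prednisone, with 6 of 7 higher in infarction under vehicle and 4 of 7 lower with prednisone after it. Fibroblast markers (6 genes) ran from 360 to 485, 410 to 490, 825 to 1015 and 285 to 483 TPM in the same order of groups, with 6 of 6 higher and then 6 of 6 lower. Macrophage markers (6 genes) ran from 123 to 155, 133 to 176, 232 to 360 and 128 to 245 TPM, with 6 of 6 higher and then 4 of 6 lower. The 4 smooth muscle markers ran from 73.5 to 75.9, 72.1 to 74.7, 95.3 to 173 and 76.5 to 91.3 TPM. Lymphocyte markers reached 1797 TPM in MI vehicle replicate 3, the highest of all libraries. The 4 atrial markers, *Nppa* among them, ran from 845 to 2487, 1982 to 2686, 2802 to 4106 and 4335 to 6173 TPM, with 3 of 4 higher with prednisone after infarction. Of the 6 cardiomyocyte markers, *Myh6* and *Tnni3* were lower in infarction under vehicle, and *Tnnt2* and *Tnni3* were higher with prednisone after it. The list's median changes were -0.46 and 0.051. After rescaling 2 were lower and then 3 higher, and after length correction 3 lower and then 2 higher. Without MI vehicle replicate 3 *Myh6* alone was lower in the first comparison. In the second, *Tnni3* was then higher and *Ryr2* and *Pln* were lower.

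The marker calls depended on the scaling. After rescaling 0 of 7 endothelial markers were higher in infarction under vehicle and 1 lower with prednisone after it, and after length correction 0 of 6 were higher or lower in the first and *Kdr* was higher in the second. For fibroblasts the counts were 2 higher and 5 lower after rescaling, and 2 higher and 3 lower after length correction. For macrophages they were 2 higher and 3 lower, and 2 higher and 2 lower. Without MI vehicle replicate 3, 2 endothelial, 5 fibroblast and 4 macrophage markers were higher in infarction, and 4, 5 and 3 were lower with prednisone after it. No listed marker was at 0 in every library. Among the members as deposited, MI vehicle lay above all other 9 libraries for *Klf3*, *Klf4*, *Klf6*, *Klf10*, *Klf11* and *Klf13*, and did not for *Klf2*, *Klf7* and *Klf12*. The margin was 11.691 against 11.647 TPM for *Klf3* and 10.204 against 10.170 TPM for *Klf13*. The share of all genes with this order was not computed. Against sham vehicle alone, 40.8% of all genes did not overlap and were higher. After rescaling that share was 15%, and of the members only *Klf6* and *Klf10* were among them. The part of cell composition in the member changes was not tested.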

How the data were processed

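The authors deposited 1 table of TPM with 105129 transcript rows, in which every library sums to 1000000. Per the labels' protocols, stranded mRNA libraries were made from Trizol and column-purified total RNA. The submitters' processing notes name Trimmomatic, HISAT2, kallisto and the build mm10, with no role, order or version. TPM keeps no depth, so no counting error can be given, and precision rests on the spread between 3 mice a group. A few abundant RNAs taking a larger share, or uneven coverage along transcripts, moves the TPM of other genes. The planned test for counts was not needed, since the values are TPM.

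Transcript rows sharing a symbol were added up. The 13158 genes that reached 1 TPM in 3 or more of the 12 libraries were transformed to log2(TPM + 1), and fold changes are on that scale, which understates changes of low genes. limma 3.58.1 in R 4.3.3 (eBayes with trend, 4 group means, all 12 libraries, two-sided) gave p-values, adjusted by Benjamini-Hochberg over all tested genes within each comparison, with a call at adjusted p under 0.05. Samples were grouped by their titles. In data simulated on MI against sham under vehicle over 13158 genes, 65% of genes changed by a log2 of 1 and 90% changed by a log2 of 2 were recovered. The simulated noise was independent between genes, with no shift shared by all genes, no library standing apart and no trend with length. These rates therefore check the fit and do not give its power in the real libraries. Alternatives were median-ratio rescaling, no filter, a pseudocount of 0.1, no trend, the most abundant transcript, only the groups compared, each mouse left out, leaving out rows of mitochondrial genes, their nuclear copies and globins, a loess correction (span 0.5) for transcript length, and the replicate number as a block. Lengths and gene coordinates came from GENCODE M21, matched by transcript identifier without its version (99.6% of tested genes). Promoters came from a RefSeq table. The members, lists and tests were chosen with earlier results of these data known. The text names all members, for the 4 with the widest range of group means the 2 genes most like each, and from each list the called genes and at most 4 genes with values. Of the marker lists, those for neutrophils, mesothelium, erythroid cells and skeletal muscle are given with the limits.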

Additional observations from a re-analysis of the deposited data

Results flagged for a closer look

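Among the members, 6 had a prednisone effect that differed between infarcted and sham hearts by the interaction test of limma, each lower after infarction. The difference in log2 change was -1.73 for *Klf3*, -0.76 for *Klf4*, -0.79 for *Klf6*, -1.18 for *Klf7*, -0.76 for *Klf11* and -1.20 for *Klf12*. In sham hearts the prednisone effects of these 6 were 0.28, 0.17, 0.018, 0.27, 0.083 and 0.35, and after infarction they were -1.45, -0.58, -0.77, -0.91, -0.68 and -0.85. The median difference over all genes was -0.48, and 20.7% of all genes were called lower in this test. After rescaling 2 members were called, against 4.41% of all genes. With length correction 1 member was, against 1.14%.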

How the results depend on the processing

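Over 24 alternatives, 37 of 45 member results (9 members in 5 comparisons) kept their direction in all. Counts of called members, as deposited, were 3 for infarction under vehicle, 3 for infarction under prednisone, 8 for prednisone after infarction, 0 for prednisone in sham hearts and 6 for the interaction. In the same order, the shares of all genes called were 15.1% higher, 14.1% lower, 34.9% lower, 0.114% in either direction and 20.7% lower. With the replicate block the member counts were 3, 3, 8, 0 and 6, and the block changed no member's call. Same-numbered mice did not deviate together (mean r of -0.37, -0.050, -0.25 and 0.0028 in the 4 group comparisons). Deviations within a group of so few mice sum to 0, so these values cannot decide whether the numbers pair the mice. No label ties mice of the same number.

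For infarction under vehicle, the count was 0 after median-ratio rescaling, with only the groups compared, and with length correction with or without the replicate block. Of all genes, 3.26%, 0.0152% and (without the block) 3.04% were called higher there. The count was 1 with the most abundant transcript and 0 to 7 with 1 mouse left out. It was 0 without sham vehicle replicate 1 or 3, 7 without MI vehicle replicate 1 (41.2% of all genes higher) and 5 without MI prednisone replicate 3 (13.6%). For infarction under prednisone, the count was 5 with only those groups (19.8% of all genes lower). It was 5 without mitochondrial, nuclear-copy and globin rows, and 3 to 5 with 1 mouse left out. It was 5 without MI vehicle replicate 3 (22.9% of all genes lower). It was 3 without MI vehicle replicate 1 (15.4%) and 3 without MI prednisone replicate 3 (14.7%). For prednisone after infarction the count was 5 after rescaling, 2 with only those groups and 2 with length correction with or without the replicate block. Of all genes, 13.8%, 5.91% and (without the block) 7.66% were called lower there. For the interaction the count was 2 after rescaling (4.41% of all genes lower) and 1 with length correction with or without the block (1.14% without it). Leaving out 1 mouse gave 7 to 8 for prednisone after infarction, 0 to 0 for prednisone in sham hearts and 4 to 7 for the interaction. Without MI vehicle replicate 1, MI vehicle replicate 3 or MI prednisone replicate 3, 45.6%, 28% and 28% of all genes were lower with prednisone after infarction. For the interaction these shares were 33.7%, 22.6% and 19.1%. Shares of all genes are not given here for the other mice, the most abundant transcript, the replicate block or the removed rows. Rescaling or length correction together with leaving out MI vehicle replicate 3, chosen after seeing the data, gave 0 and 0, 5 and 2, and 2 and 1 for infarction under vehicle, prednisone after infarction and the interaction. In the same order, the shares of all genes called were 2.32% and 2.3% higher, 13.4% and 8.02% lower, and 5.79% and 1.84% lower. The cause of these moves was not tested, except that fewer libraries were fitted where groups or mice were left out.

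Of the results whose direction turned, 0 were called as deposited, and the widest were the *Klf10* interaction (-0.52) and *Klf11* for infarction under vehicle (0.36). *Klf2* with prednisone after infarction became 0.29 rescaled, 0.19 length-corrected (with or without the block), and 0.28 and 0.18 in the 2 added settings, with -0.30 to 0.031 when 1 mouse was left out. Its interaction became 0.27, 0.12, 0.25 and 0.11 in the same settings. *Klf6* with prednisone in sham hearts became -0.059 rescaled, -0.056 without mitochondrial, nuclear-copy and globin rows, -0.083 length-corrected (with or without the block), -0.059 and -0.083 in the added settings, and -0.043 to 0.11 when 1 mouse was left out. With length correction, with or without the block, *Klf11* became -0.055 for infarction under vehicle and -0.015 for prednisone in sham hearts, *Klf6* became 0.14 for infarction under prednisone, and the *Klf10* interaction became 0.075. With MI vehicle replicate 3 left out as well, *Klf11* in sham hearts was -0.015, *Klf6* was 0.14 and *Klf10* was 0.064. *Klf10* for infarction under prednisone ran from -0.049 to 0.33 when 1 mouse was left out. The cause was not tested.

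The numbers rest on TPM, so low members such as *Klf5* and *Klf12* carry an unknown counting error. Summed TPM of further markers, in the order sham vehicle, sham prednisone, MI vehicle and MI prednisone, were 5.61 to 17.7, 14.5 to 20.2, 12.3 to 52.2 and 24.1 to 32.3 for neutrophils, 20.5 to 47.5, 33.2 to 39.6, 48.1 to 101 and 15.2 to 33.6 for mesothelium, 26712 to 96730, 42997 to 78689, 37527 to 96405 and 47630 to 98114 for erythroid cells, and 1423 to 1639, 1571 to 1960, 1489 to 1902 and 1887 to 1961 for skeletal muscle.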
